A study of Mus musculus with 5 samples.

Results

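The genes described here encode the enzymes, readers and motors that act on chromatin, measured in mesenchymal stem cells of mice with and without TSG-6. They were picked by symbol, as genes of the Kat, Hdac, Sirt, Kmt, Setd, Ezh, Kdm, Dnmt, Tet, Smarc, Chd, Arid, Cbx and Brd families. The choice was made with earlier results of these data known. The rule matched 113 genes and left out Kdm5c and Kdm5d, so that 111 of 12621 genes were members, and all 111 passed the filter on low values. TSG-6, the product of Tnfaip6, is secreted and binds hyaluronan, and mesenchymal stem cells are stromal cells that grow attached to plastic and give rise to bone, fat and cartilage cells. To ask, in the terms of the series title, what TSG-6 has to do with stemness, the study set 3 libraries of TSG-6 knockout cells (titled KO) against 2 of wild-type cells (titled WT), all of strain Balb/c (C.129S6). The knockout columns are named C1, C2 and SE and the wild-type columns C1 and SE, names that the labels do not explain, and the design text speaks of only 2 biological replicates for each kind of cell. The labels give no age, passage, tissue of origin or description of the deleted allele, and they do not say whether each library is a separate animal or culture, so the spread behind the p-values may be technical.

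Chromatin is DNA wound around histones. Acetyltransferases and methyltransferases write marks on histone tails, deacetylases and demethylases remove them, and proteins with bromodomains or chromodomains bind to them. Remodellers use ATP to slide or evict nucleosomes, and Dnmt enzymes methylate cytosines while Tet enzymes oxidise the methyl group. In stromal progenitors such regulators are known to take part in the choice between self-renewal and the bone, fat and cartilage lineages.

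Recovered reads numbered between 13605555 and 26658725 per library, and values are counts normalised to roughly the CPM scale. Tnfaip6 itself had 1.65, 2.38 and 1.36 in the knockout libraries, given here and below in the order C1, C2 and SE, against 6.04 and 3.21 in the wild-type libraries C1 and SE, and did not pass the threshold (limma, log2 fold change -1.13, adjusted p = 0.0578). Of 10 listed mesenchymal stem cell markers 9 were measured, and Thy1 was not among the genes analysed here. The summed level of the 9 lay between 11067 and 15745 in the knockout, most of it from Cxcl12, and between 2371 and 2705 in the wild type. Of these markers Cxcl12 rose, while Cd44, Ly6a and Nt5e fell, and Nt5e, a surface enzyme used to define such cells, had 0.752, 0.946 and 0.358 in the knockout and 77.4 and 121 in the wild type. Among markers of other cell types, 4 of 8 genes of blood cells were measured. Their sums were 50.1 to 59.1 in the knockout and 66.9 to 94.4 in the wild type, where most came from Cd14. Cd14 fell, with a mean of 12.5 in the knockout and values of 89.2 and 63.8 in the wild type. Csf1r and Lyz2 rose, against the direction of the sums. Lyz2 had 34.2, 24.4 and 32.2 in the knockout and 0.162 and 0 in the wild type. Csf1r averaged 6.34 in the knockout and 0.279 in the wild type. Cd68 was not called, and Ptprc, Adgre1 and Itgam were not among the genes analysed here. No endothelial marker of the 5 listed was analysed here, and of the epithelial markers the measured one, Krt18, had no read in the knockout libraries and 6.81 and 2.75 in the wild-type libraries. Xist, the RNA that coats the inactive X chromosome, had 14.1, 19.6 and 19.1 in the knockout and 0.527 and 0.104 in the wild type, while Ddx3y, Eif2s3y and Uty of the Y chromosome were without reads in all knockout libraries and had between 8.67 and 33.7 in the wild type. The genotypes and the sex-chromosome content of the cells therefore cannot be told apart. Of 12484 genes tested, 34.3% passed the threshold, 17.2% higher and 17.1% lower in the knockout.

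In knockout cells the remodellers Chd7, Chd1 and Smarca5, the chromobox proteins Cbx2, Cbx5 and Cbx1, the methyltransferases Dnmt1, Ezh2 and Kmt5a and the acetyltransferases Kat2a and Kat7 were among the genes with lower transcript levels, and Arid5b, Smarca2 and Kat6b were among those with higher levels. Of the 111 members, 6 rose and 16 fell in knockout cells past the threshold of 0.05 on the adjusted p, which is 5.41% and 14.4% of them, both below the share of all genes. DESeq2 on recovered reads called 12 higher and 16 lower, edgeR did not call Setd4, Hdac8 or Setdb1, and after chromosome centring Smarce1, Kat7, Cbx5, Cbx1, Hdac8, Setdb1, Setd3 and Setd4 were no longer called. The limma log2 fold change was 1 or more in size for 4 of those that rose and 13 of those that fell. The median log2 fold change was -0.26 over the members and -0.09 over all tested genes, or -0.02 over the members once each library was centred on its chromosome medians. The median size of change, without its sign, was 0.49 over the members and 0.71 over all genes. Values did not overlap between the groups for 50 members, 17 with all knockout libraries above and 33 with all below the wild type. That is 45.0% of the members, against 58.8% of all tested genes. In whole-culture RNA, fewer cells of a kind and less RNA per cell cannot be told apart. Markers of dividing cells moved beside these genes: 9 of 13 were lower and 0 higher in the knockout by the same limma fit, with a summed level of 1178 to 1784 in the knockout and 3076 to 3338 in the wild type. No marker was higher at an unadjusted p under 0.05, with edgeR or with DESeq2 either. The part of cell division in the results was not tested. Without knockout C2, 1 member was higher and 3 lower, beside 1461 and 1280 of the 12320 genes tested in that fit. Without knockout C1 the counts were 5 and 8, beside 1685 and 1624 of 12326 genes. Without knockout SE they were 7 and 25, beside 2332 and 2632 of 12296 genes. Calls also became fewer, among members and among all genes, when either wild-type library was left out, which leaves 1 in that group. The calls of Arid5a, Arid5b and Chd7 held whichever library was left out, and each of the other 19 was lost without at least 1 library; the highest adjusted p over these 5 fits is given beside each.

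**Figure D1:**
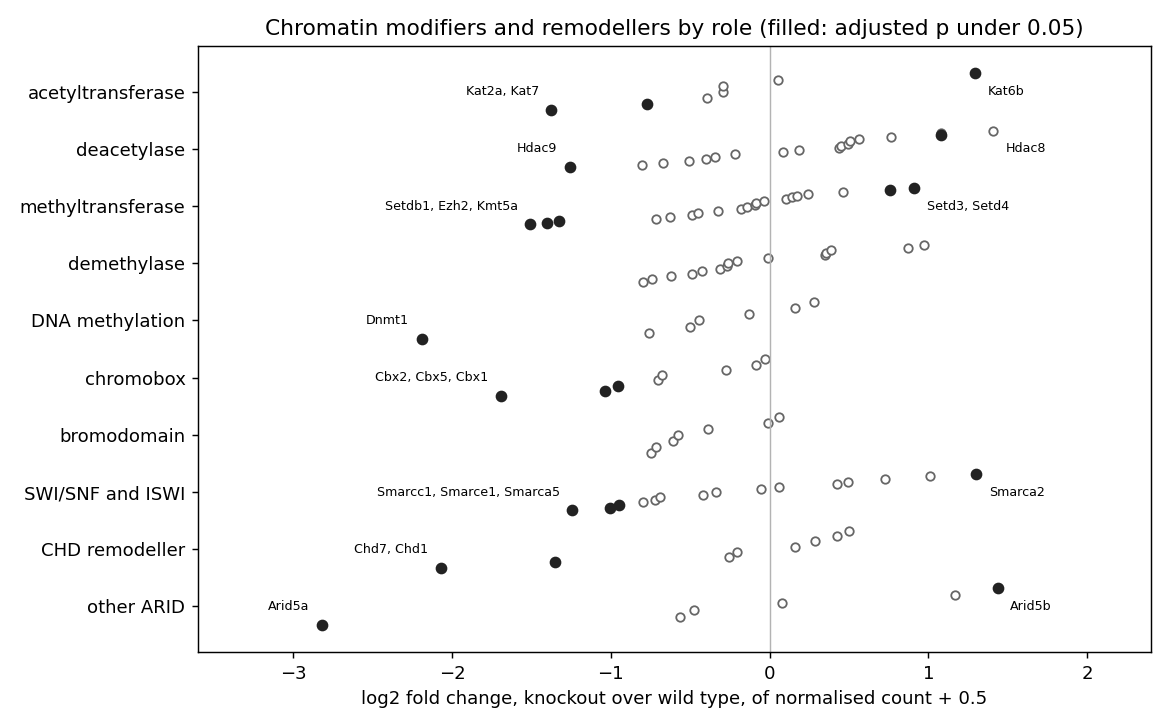
Log2 fold change, knockout over wild type, of all 111 members by role, one point a gene, with filled points for the 22 past an adjusted p of 0.05 (limma) and their names listed from low to high. All 8 chromobox genes lie below 0 (7 with median-of-ratios or quantile rescaling and 5 after chromosome centring), no demethylase or bromodomain gene is filled, and the extremes are Arid5a at -2.82 and Arid5b at 1.44.

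Histone acetyltransferases transfer acetyl groups to lysines, and 1 of the 7 was higher and 2 were lower. That is 14.3% and 28.6%, beside 17.2% and 17.1% of all tested genes, with which each count by role below is to be compared. Kat6b, an acetyltransferase of histone H3 that works in a complex with Brpf proteins, had 15.8, 17.8 and 19.1 in the knockout libraries and 7.74 and 6.06 in the wild-type libraries. Every knockout value lay above both wild-type values, a 2.55-fold rise (log2 fold change 1.29, standard error 0.29, adjusted p = 0.0150; up to 0.115 with 1 library left out). Its relative Kat6a had 16.1, 13.8 and 19.2 in the knockout and 22.8 and 20.4 in the wild type and was not called (adjusted p = 0.313). Kat2a, the catalytic subunit of the SAGA coactivator complex, had 35.5, 38.9 and 51.8 in the knockout and 88.8 and 132 in the wild type. It fell 2.63-fold, with no overlap (log2 fold change -1.37, standard error 0.29, adjusted p = 0.0123; up to 0.0952). Kat2b, the other enzyme that can fill that place, had 10.7, 17.8 and 20.1 in the knockout libraries, on both sides of the 16.0 and 14.2 of the wild type. Kat7, which acetylates histones at replication origins, averaged 94.4 ± 9.96 in the knockout and 161 ± 18.0 in the wild type (SD, here and below with n = 3 and n = 2), and fell (log2 fold change -0.77, adjusted p = 0.0339; up to 0.206). The other members, Kat5 and Kat8, were not called.

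Among 18 deacetylases, Hdac8 was higher and Hdac9 lower, and the class had the highest median of the 10 roles, 0.31. Hdac8, a class I enzyme that also deacetylates cohesin, had 27.9, 22.9 and 22.3 in the knockout and 15.2 and 8.24 in the wild type. All knockout values were above both wild-type values, but the adjusted p of 0.0492 was just inside the threshold and reached 0.297 with 1 library left out (log2 fold change 1.08, standard error 0.34). The gene lies on the X chromosome, as do Hdac6 and Kdm6a among the members, neither of which was called. Hdac9, a class IIa enzyme that acts with Mef2 factors in muscle, had 3.34, 5.18 and 5.23 in the knockout and 10.3 and 12.7 in the wild type. It fell 2.51-fold (log2 fold change -1.26, standard error 0.33, adjusted p = 0.0272; up to 0.175). Its class IIa relatives did not pass: Hdac4 had a log2 fold change of -0.80, Hdac5 of -0.40 and Hdac7 of 0.50, with adjusted p-values of 0.145, 0.636 and 0.571. The other class I enzymes, the catalytic subunits of the Sin3, NuRD and N-CoR corepressors, were not called either. Hdac2 had 298, 239 and 208 in the knockout and 196 and 153 in the wild type, and Hdac1 had 70.6, 58.8 and 41.9 in the knockout and 98.0 and 64.3 in the wild type. Hdac3 averaged 199 ± 32.9 in the knockout and 144 ± 5.15 in the wild type (adjusted p = 0.169). With the library suffix, C or SE, as a block in the limma fit, more of these were called. Hdac2, Hdac3 and Hdac7 were then higher and Hdac1, Hdac4 and Hdac6 lower, beside 28.3% and 32.3% of all tested genes.

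No sirtuin, the NAD-dependent deacylases, passed the limma threshold; 2 had an unadjusted p under 0.05, edgeR called 0, and DESeq2 called Sirt2 and Sirt5 as higher. Sirt5, a mitochondrial enzyme that removes succinyl groups, came closest, with 18.8, 22.02 and 12.3 in the knockout and 8.96 and 6.89 in the wild type (log2 fold change 1.08, adjusted p = 0.0539). The knockout values were all above the wild-type values, as they were for Sirt2, a mostly cytoplasmic tubulin deacetylase, with 132, 171 and 102 in the knockout and 87.3 and 68.6 in the wild type (adjusted p = 0.0815). Sirt6, a nuclear enzyme that guards telomeres, did not overlap either, with log2 fold change 0.44 and adjusted p = 0.271. Log2 fold changes of the remaining 4 were -0.22 for Sirt1, 0.19 for Sirt3, 0.56 for Sirt4 and 0.08 for Sirt7, with overlapping groups. Just outside the threshold stood Sirt5 and Hdac11 (0.0695), and just inside it Hdac8, Setdb1 (0.0466) and Setd4 (0.0460). Hdac11, a class IV enzyme, had 1.22, 2.31 and 5.02 in the knockout and 0.689 and 0.570 in the wild type. Sirt2, Sirt5 and Hdac11 were called as higher with the suffix block.

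Of 20 lysine methyltransferases 3 were lower and 2 higher, which is 15% and 10%, both below the 17.1% and 17.2% of all tested genes. Ezh2, the catalytic subunit of Polycomb repressive complex 2, which methylates histone H3 at silenced developmental genes, had 42.3, 25.8 and 26.8 in the knockout and 90.7 and 74.8 in the wild type. Every knockout library was below both wild-type libraries, a fall of 2.62-fold (log2 fold change -1.40, standard error 0.30, adjusted p = 0.0129; up to 0.0930). Ezh1, the paralog typical of cells that have stopped dividing, averaged 34.6 ± 10.3 in the knockout and 34.6 ± 5.23 in the wild type and was not called (adjusted p = 0.946). Kmt5a, which places a single methyl group on histone H4 and is tied to the cell cycle, had 63.6, 64.9 and 83.3 in the knockout and 140.1 and 222 in the wild type. Its groups did not overlap and it fell 2.56-fold (log2 fold change -1.33, standard error 0.28, adjusted p = 0.0126; up to 0.0943). Setdb1, which trimethylates histone H3 at retroelements and silences them, had 15.0, 17.9 and 36.7 in the knockout and 45.0 and 85.1 in the wild type. It was called by a narrow margin (log2 fold change -1.51, standard error 0.47, adjusted p = 0.0466; up to 0.240), and 75 bases of its exons are shared with Cers2 on the opposite strand.

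The methyltransferases that rose were Setd3 and Setd4. Setd3, known as the enzyme that methylates a histidine of actin, averaged 109 ± 9.01 in the knockout and 64.3 ± 2.03 in the wild type (log2 fold change 0.76, standard error 0.21, adjusted p = 0.0315; up to 0.174). Setd4 had 6.40, 6.20 and 6.59 in the knockout and 2.88 and 3.47 in the wild type (log2 fold change 0.91, adjusted p = 0.0460; up to 0.258). Knockout values of both genes were above all wild-type values. The 50 tested genes nearest to Setd4 on chromosome 16 had a median log2 fold change of 0.87, close to its own. After each library was centred on the median of each chromosome, the log2 fold change was 0.06 for Setd4 and 0.10 for Setd3, and neither was called (adjusted p = 0.915 and 0.830). The Kmt2 genes, whose products methylate histone H3 at promoters and enhancers, were not called, nor was any of Setd1a, Setd1b, Setd2, Setd5, Setd6, Setd7, Setdb2, Kmt5b and Kmt5c. Kmt2e, a reader-like relative with little enzyme activity, had 112, 106 and 110.4 in the knockout and 144 and 107 in the wild type.

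None of the 15 demethylases, which remove methyl groups from histone lysines, passed the threshold, and their log2 fold changes lay between -0.79 and 0.97. At an unadjusted p under 0.05 there were 0 as well, edgeR called 0 and DESeq2 called 1, Kdm7a, as higher. Kdm6b and Kdm6a, which act on the mark that Ezh2 writes, had log2 fold changes of -0.74 and 0.35. Kdm1a, the flavin-dependent demethylase of the CoREST complex, had 57.5, 61.0 and 63.5 in the knockout and 71.7 and 92.9 in the wild type, all knockout values below (adjusted p = 0.187). Levels of these genes were higher in SE than in C libraries within both groups for 14 of the 15 genes, against 58 of all 111 members (52.3%) and 36.9% of all tested genes. Kdm6a, for example, had 17.3, 21.5 and 57.7 in the knockout and 16.1 and 29.2 in the wild type, so that the SE library was the highest in each group and the groups overlapped.

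Dnmt1, the maintenance methyltransferase that copies DNA methylation onto new strands, was the DNA methylation gene that passed, and it fell. It had 27.0, 20.6 and 71.7 in the knockout libraries and 103 and 244 in the wild-type libraries. The SE library was the highest of each group, yet all knockout values were below both wild-type values (log2 fold change -2.19, standard error 0.60, adjusted p = 0.0316; up to 0.158). The ratio of knockout to wild-type means was 0.230 with all libraries, 0.388 without wild-type SE and 0.138 without knockout SE. The de novo enzyme Dnmt3a averaged 11.7 ± 2.04 in the knockout and 12.9 ± 3.19 in the wild type. Dnmt3b averaged 2.47 ± 0.926 in the knockout and 1.89 ± 0.477 in the wild type. Dnmt3l, a cofactor without catalytic activity, averaged 1.499 ± 0.481 in the knockout and 1.26 ± 0.0559 in the wild type. None of the 3 was called, nor was a Tet gene, with 0 of 3 past an unadjusted p of 0.05 and 0 with edgeR and DESeq2. Tet3 came nearest, with 5.41, 5.94 and 9.75 in the knockout and 12.1 and 11.6 in the wild type (adjusted p = 0.139), while the groups overlapped for Tet1 (log2 fold change -0.50) and Tet2 (-0.45).

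Promoter windows of Dnmt1 and Ezh2 are shown because both fell with the markers of dividing cells. They are the 250 bases before a RefSeq start (build GRCm38.p6), at chr9:20952624-20952873, minus strand for 1 of the 3 Dnmt1 windows, and at chr6:47595031-47595280, minus strand for Ezh2. Capitals mark GGGCGG (the GC box, a Sp1-type motif) and CCAAT (the box of NF-Y), each on either strand.
Dnmt1: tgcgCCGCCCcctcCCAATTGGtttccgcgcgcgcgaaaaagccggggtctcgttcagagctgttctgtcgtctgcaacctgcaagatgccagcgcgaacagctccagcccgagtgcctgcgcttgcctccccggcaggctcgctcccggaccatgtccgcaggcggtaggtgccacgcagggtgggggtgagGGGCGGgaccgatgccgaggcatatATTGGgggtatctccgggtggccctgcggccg
Ezh2: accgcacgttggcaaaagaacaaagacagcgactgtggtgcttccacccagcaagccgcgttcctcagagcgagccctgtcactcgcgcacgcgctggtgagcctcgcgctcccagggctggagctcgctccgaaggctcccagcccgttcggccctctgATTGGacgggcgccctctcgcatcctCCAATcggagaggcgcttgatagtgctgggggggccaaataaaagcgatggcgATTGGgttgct
The Dnmt1 window holds 2 GC boxes and 3 CCAAT matches, a pair of which overlap in a palindrome, and 26 CpG. It lies downstream of the other 2 Dnmt1 starts, so it may hold transcribed bases. The window at chr9:20952980-20953229 has 0 GC boxes, 0 CCAAT matches and 7 CpG. The window at chr9:20959889-20960138 has 0 GC boxes, 4 CCAAT matches and 2 CpG. The Ezh2 window holds 0 GC boxes, 3 CCAAT matches and 23 CpG. It lies inside the annotated gene, 47530139 to 47595341, so it too may hold transcribed bases.

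All 8 chromobox genes, readers of methylated lysines, had a negative log2 fold change, although 1 of them was positive with median-of-ratios or quantile rescaling and 3 after chromosome centring. By the test, 3 were lower in the knockout, 37.5% of them against 17.1% of all tested genes. Cbx5 and Cbx1 encode heterochromatin protein 1 alpha and beta, which bind the mark of constitutive heterochromatin. Cbx5 had 79.7, 72.1 and 82.0 in the knockout and 181 and 142 in the wild type, a fall of 2.07-fold (log2 fold change -1.04, standard error 0.22, adjusted p = 0.0127; up to 0.116). Cbx1 had 37.0, 31.7 and 28.5 in the knockout and 73.6 and 53.7 in the wild type (log2 fold change -0.95, standard error 0.26, adjusted p = 0.0312; up to 0.218). Neither gene's groups overlapped. The gamma form, Cbx3, had 15.5, 10.7 and 13.6 in the knockout and 25.5 and 18.4 in the wild type, all knockout values again below, and was not called (adjusted p = 0.126). Its value is uncertain, since 8 annotated pseudogenes are named after it. Among members that passed, Kat6b has 2 such pseudogenes and Smarca5 and Smarce1 have 1 each, so that reads may have been split.

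Of the Polycomb chromobox genes, which bring Polycomb repressive complex 1 to chromatin, Cbx2 fell. It had 3.24, 3.03 and 5.73 in the knockout and 9.36 and 19.5 in the wild type, without overlap (log2 fold change -1.69, standard error 0.44, adjusted p = 0.0266; up to 0.180). The ratio of means was 0.277, and 0.427 without wild-type SE. Its relatives Cbx6, Cbx7 and Cbx8 overlapped between the groups, with log2 fold changes of -0.27 for Cbx6, -0.68 for Cbx7 and -0.09 for Cbx8. Of the 7 bromodomain readers, which bind acetylated lysines, 0 were called, 2 were lower at an unadjusted p under 0.05, and edgeR and DESeq2 called 0. Their median log2 fold change was -0.57. Brd2, one of them, had 129, 124 and 220.1 in the knockout and 189.7 and 270.0 in the wild type, with overlap (adjusted p = 0.222).

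SWI/SNF complexes evict and slide nucleosomes and are built around the ATPase Smarca4 (Brg1) or Smarca2 (Brm), while Smarca5 is the ATPase of the ISWI complexes. Of the 15 members in this class, 1 was higher and 3 were lower, which is 6.67% and 20%, against 17.2% and 17.1% of all tested genes. Smarca2 had 46.0, 66.0 and 81.9 in the knockout libraries and 30.1 and 21.1 in the wild-type libraries. All knockout values were above the wild type, a 2.53-fold rise (log2 fold change 1.30, standard error 0.32, adjusted p = 0.0231; up to 0.136). Smarca4 had 70.0, 78.4 and 131 in the knockout and 124 and 176 in the wild type, with the knockout SE library above wild-type C1, and was not called (log2 fold change -0.72, adjusted p = 0.143). Smarcc1, a scaffold subunit, had 72.7, 64.9 and 97.5 in the knockout and 167 and 201 in the wild type. It fell 2.35-fold, with no overlap (log2 fold change -1.24, standard error 0.26, adjusted p = 0.0116; up to 0.0843), and 123 bases of its exons are shared with Dhx30 on the opposite strand. Smarcc2, the alternative scaffold, was singled out after its values were seen. It had 111, 145 and 300.4 in the knockout and 57.2 and 122 in the wild type, so the groups overlapped, and it was not called (adjusted p = 0.167).

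The subunit Smarce1 had 45.3, 43.4 and 36.5 in the knockout and 101 and 69.7 in the wild type and fell 2.04-fold (log2 fold change -1.0040, standard error 0.26, adjusted p = 0.0259; up to 0.195). Smarca5 had 87.3, 88.0 and 106 in the knockout and 171 and 191 in the wild type (log2 fold change -0.95, standard error 0.21, adjusted p = 0.0163; up to 0.116). All knockout values of both genes were below the wild-type values. Smarcb1, a core subunit present in most SWI/SNF forms, averaged 262 ± 47.2 in the knockout and 186 ± 39.99 in the wild type, and was not called (adjusted p = 0.191). Smarcad1 and Smarcal1, ATPases related to these, were not called either. The Smarcd subunits, of which a complex holds 1 at a time, were not called, with log2 fold changes of -0.34 for Smarcd1, -0.42 for Smarcd2 and 0.42 for Smarcd3. For Smarcd3 that value is uncertain, since 48.2% of its exon bases overlap Chpf2 on the opposite strand. Arid1a, Arid1b and Arid2, the subunits that tell apart the BAF and PBAF forms of the complex, overlapped between the groups. Arid1b ranged most, with 11.8, 15.2 and 56.8 in the knockout and 12.4 and 35.1 in the wild type, the SE library being highest in each group.

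Promoters of Smarca2 and Smarcc1 are shown because these subunits of 1 complex moved in opposite directions. The windows lie at chr19:26604910-26605159, plus strand for Smarca2 and chr9:110131774-110132023, plus strand for Smarcc1, with the same marking as before.
Smarca2: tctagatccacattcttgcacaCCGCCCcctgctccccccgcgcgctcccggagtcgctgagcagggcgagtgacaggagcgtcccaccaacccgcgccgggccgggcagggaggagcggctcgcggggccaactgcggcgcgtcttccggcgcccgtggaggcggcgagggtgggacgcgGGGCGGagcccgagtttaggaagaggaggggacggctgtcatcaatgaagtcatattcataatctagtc
Smarcc1: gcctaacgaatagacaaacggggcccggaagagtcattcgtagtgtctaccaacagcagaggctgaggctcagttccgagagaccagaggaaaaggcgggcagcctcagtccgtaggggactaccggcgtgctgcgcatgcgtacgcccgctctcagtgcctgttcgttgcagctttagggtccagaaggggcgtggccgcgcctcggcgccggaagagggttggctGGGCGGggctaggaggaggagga
Smarca2 has 2 GC boxes, 0 CCAAT matches and 28 CpG in its window, and Smarcc1 has 1, 0 and 21. The Smarcc1 window lies inside the annotated gene, which starts at 110117708, and the Smarca2 window runs past the annotated start, 26605050. Both may hold transcribed bases.

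Related genes were set against each other within each library, as ratios of normalised counts per kb of annotated exon, without a test, since 3 libraries against 2 cannot give an exact permutation p below 0.1. Smarca2 to Smarca4 was 0.298, 0.382 and 0.284 in the knockout and 0.110 and 0.0544 in the wild type, so Smarca4 was the higher of the pair in all 5 libraries. Smarcc2 to Smarcc1, a pair chosen after its values were seen, was 2.14, 3.15 and 4.35 in the knockout and 0.482 and 0.859 in the wild type. By RNA per kb of exon, Smarcc2 was thus the higher in every knockout library and Smarcc1 in both wild-type libraries, narrowly so in wild-type SE. Smarcc2 itself was not called, and protein levels and the make-up of the complex were not measured. In mouse embryonic stem cells the SWI/SNF complex is known to hold Smarca4 and Smarcc1 and little of Smarca2 or Smarcc2. Ezh2 to Ezh1 was 2.02, 0.782 and 0.683 in the knockout and 3.27 and 2.18 in the wild type, with knockout C1 nearly at the level of wild-type SE. Kat2a to Kat2b was 4.65, 3.05 and 3.61 in the knockout and 7.76 and 13.0 in the wild type, and Kat6b to Kat6a was 0.533, 0.702 and 0.544 in the knockout and 0.185 and 0.162 in the wild type. Hdac2 to Hdac1 was 3.25, 3.13 and 3.82 in the knockout and 1.54 and 1.83 in the wild type, Hdac2 being higher per kb throughout. The 50 tested genes nearest to Hdac2 had a median log2 fold change of 1.46, and those nearest to Hdac1 one of -0.96. After chromosome centring the log2 fold changes were alike, 0.07 for Hdac2 and 0.09 for Hdac1. For Chd4 to Chd3, the alternative ATPases of NuRD, the groups overlapped, with 3.32, 3.49 and 2.92 in the knockout and 3.10 and 3.77 in the wild type.

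**Figure D2:**
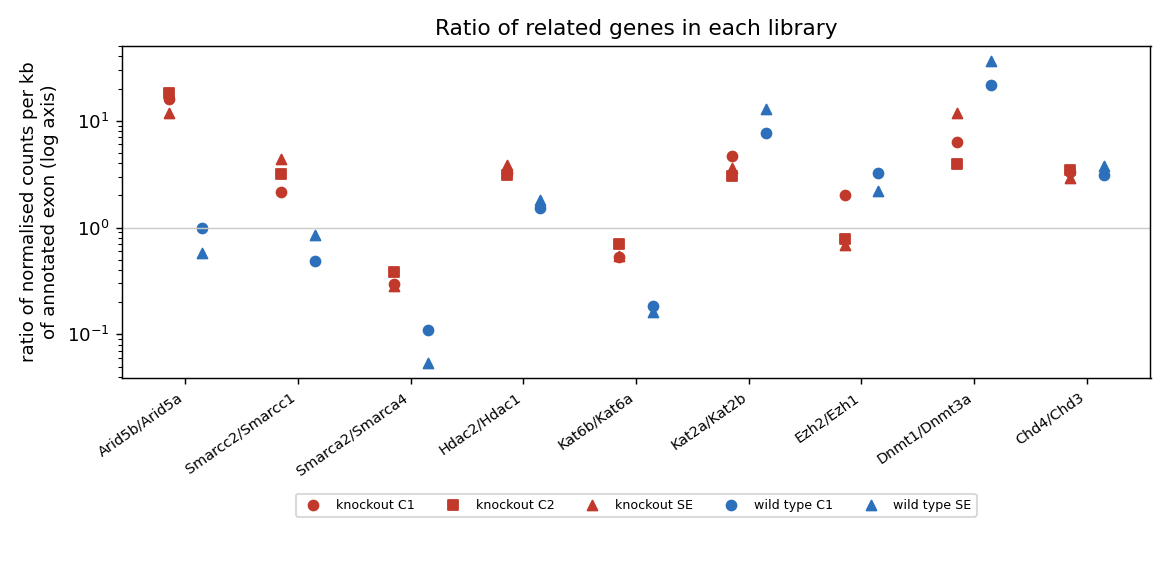
Ratios of related genes per kb of annotated exon in each library (log axis), knockout in red and left of wild type in blue, with the line at 1 for equal levels. Knockout and wild-type libraries do not overlap for the pairs shown except Chd4 to Chd3. Apart from that pair and Hdac2 to Hdac1, each holds a called member whose own groups did not overlap, so separation of the ratio adds little. Of the pairs not shown, Smarca5 to Smarca4 overlapped, while Cbx2 to Cbx8, Cbx5 to Cbx3, Hdac9 to Hdac7 and Chd1 to Chd2 did not. The Smarcc2 to Smarcc1 ratio is above 1 in all 3 knockout libraries and below 1 in both wild-type libraries.

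Chd7 and Chd1 were the CHD remodellers that changed, both downward. Chd7 (ENSMUSG00000041235, chromosome 4, 8690406 to 8867659, plus strand), a remodeller needed in neural crest cells, had 3.06, 3.71 and 5.16 in the knockout and 19.6 and 16.5 in the wild type. Every knockout value was well below both wild-type values, a fall of 4.53-fold (log2 fold change -2.07, standard error 0.33, adjusted p = 0.00433; up to 0.0444). The 50 genes nearest to it had a median log2 fold change of -0.98, and after centring on chromosome medians its own was -1.48 (adjusted p = 0.0130). Chd1, which binds methylated histone H3 at active genes and keeps chromatin open in mouse embryonic stem cells, had 62.9, 46.9 and 49.7 in the knockout and 144 and 127 in the wild type. It fell 2.55-fold (log2 fold change -1.35, standard error 0.23, adjusted p = 0.00595; up to 0.0580). The NuRD ATPases Chd3 and Chd4 had log2 fold changes of 0.50 and 0.43 and were not called, and neither were Chd2, Chd6, Chd8 and Chd9, all with overlapping groups.

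The ARID proteins outside SWI/SNF held the called members with the largest limma log2 fold change in each direction, Arid5a and Arid5b, although Smarca2 (1.31) and Kat6b (1.22) stood above Arid5b (1.00) after chromosome centring. Hdac11, which limma did not call, had a higher ratio of means than Arid5b, 4.53, and a higher log2 fold change with edgeR (2.15) and DESeq2 (2.21). Arid5a (ENSMUSG00000037447, chromosome 1, 36307733 to 36324029, plus strand, GRCm38) is known in mouse as an RNA-binding protein that stabilises the Il6 transcript. It had 11.8, 8.29 and 14.3 in the knockout libraries and 72.5 and 92.6 in the wild-type libraries. The highest knockout value was far below the lowest wild-type value, a fall of 7.22-fold (log2 fold change -2.82, standard error 0.32, adjusted p = 0.00112; up to 0.0139). Arid5b (ENSMUSG00000019947, chromosome 10, 68092520 to 68278740, minus strand), which works with the demethylase Phf2 and is needed for normal fat tissue in mice, had 151, 121 and 137 in the knockout and 57.5 and 43.1 in the wild type. All knockout values were above both wild-type values, a 2.71-fold rise in the mean (log2 fold change 1.44, standard error 0.24, adjusted p = 0.00502; up to 0.0493). Per kb of exon, Arid5b stood at 16.1, 18.2 and 11.9 times Arid5a in the knockout and 0.988 and 0.581 times in the wild type, a pair chosen after its values were seen. The 50 tested genes nearest to Arid5a had a median log2 fold change of 0.12, and those nearest to Arid5b one of 0.09. Of Arid3a, Arid3b, Arid4a and Arid4b, none was called.

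Because these relatives moved in opposite directions, their promoters are shown, at chr1:36307483-36307732, plus strand for Arid5a and chr10:68278727-68278976, minus strand for Arid5b, marked in the same way.
Arid5a: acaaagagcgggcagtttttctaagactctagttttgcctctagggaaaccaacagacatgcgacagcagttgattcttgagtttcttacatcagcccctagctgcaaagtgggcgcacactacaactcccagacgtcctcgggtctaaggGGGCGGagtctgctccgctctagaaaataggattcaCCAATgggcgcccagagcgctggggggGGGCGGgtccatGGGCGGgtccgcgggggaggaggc
Arid5b: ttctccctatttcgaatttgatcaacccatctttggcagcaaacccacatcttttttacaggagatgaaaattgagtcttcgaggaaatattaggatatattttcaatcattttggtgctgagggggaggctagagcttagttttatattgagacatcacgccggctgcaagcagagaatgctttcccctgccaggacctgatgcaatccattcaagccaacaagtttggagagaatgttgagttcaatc
The Arid5a window holds 3 GC boxes, 1 CCAAT match and 13 CpG, and the Arid5b window holds 0, 0 and 4. A few bases of the Arid5b window lie inside the gene as annotated.

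Over the members as a whole, 87 of 111 had a RefSeq window, 123 windows in all. A GC box lay in 65.9% of them, against 58.1% of the 12055 windows of tested genes and 32.7% of all 32851 windows. A CCAAT box lay in 34.1%, 35.5% and 33.8%, and the median CpG count was 20, 16 and 6. Among the members that fell, 12 genes had 18 windows, of which 61.1% held a GC box and 55.6% a CCAAT box, and among those that rose 6 genes had 8 windows, with shares of 62.5% and 50%. Windows of the same gene were counted separately. Kmt5a and Dnmt1 gave several of the windows with a CCAAT box among the members that fell. Among those that rose, the windows of Setd3 overlap each other, as do those of Kat6b. A match is a run of letters and does not show binding.

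**Figure D3:**
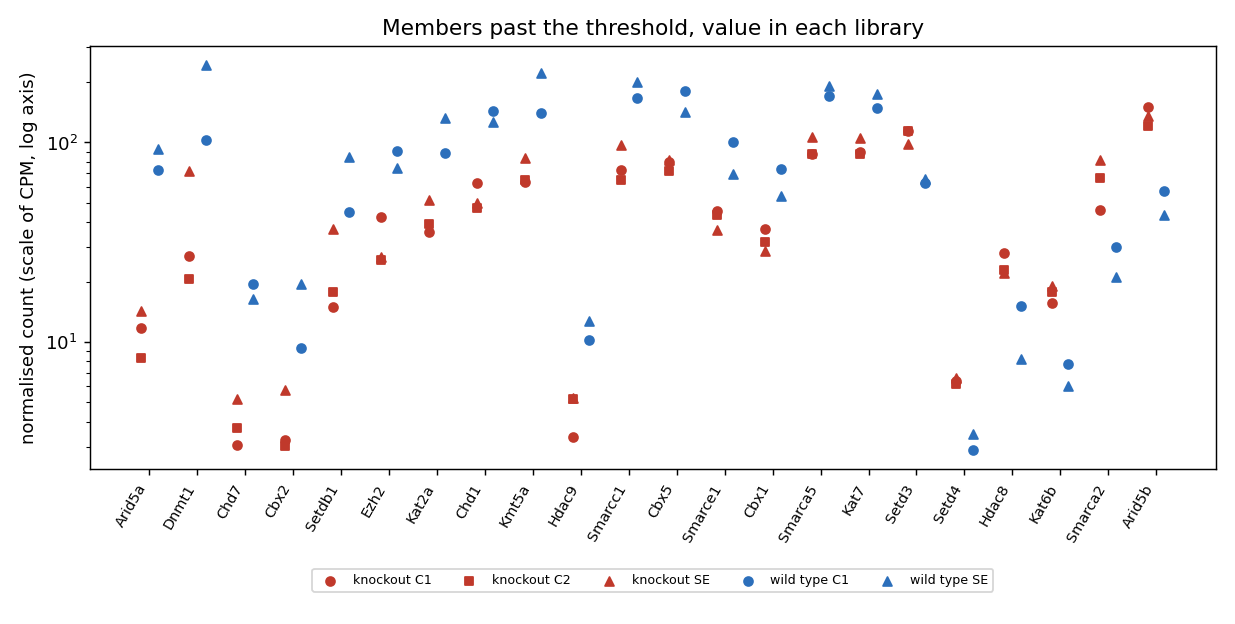
Normalised count (log axis) in each library of the 22 members past the threshold, ordered by log2 fold change, knockout in red and left of wild type in blue. The groups do not overlap for any of the 22, and the SE libraries (triangles) are the highest of both groups for Dnmt1, Cbx2 and Setdb1, among others.

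Genes that work with the members under other names were read from a list of 123, of which 120 were measured, and 3 were higher and 28 lower in the knockout, which is 2.5% and 23.3% of them, against 17.2% and 17.1% of all tested genes. The median log2 fold change of these partner genes was -0.37, and their list was written with earlier results of these data known. Without knockout C2 the lower count was 14, beside 1280 of the 12320 genes tested in that fit. After chromosome centring it was 17, beside 1490 of 12484 genes. It also fell when either wild-type library was left out. The higher count was 1 without knockout C1 and 1 without knockout C2, beside 1685 and 1461 of all genes in those fits. In Polycomb repressive complex 2, 3 of 9 were lower: Phf19, Mtf2 and Rbbp4. Phf19 and Mtf2 are accessory proteins that guide the complex to its targets. Phf19 had 3.43, 3.06 and 3.15 in the knockout and 20.8 and 22.6 in the wild type (log2 fold change -2.58, adjusted p = 0.000964), and Mtf2 had 17.5, 14.6 and 13.5 in the knockout and 48.8 and 34.1 in the wild type (adjusted p = 0.0115). The catalytic Ezh2 thus fell beside accessory subunits, while 6 of the 9 were not called. Among partners of DNA methylation, Uhrf1, which brings Dnmt1 to newly copied DNA, had 53.6, 36.5 and 47.4 in the knockout and 106 and 141 in the wild type (log2 fold change -1.42, adjusted p = 0.00828). The remodeller Hells, needed for DNA methylation at repeats, had 28.1, 17.2 and 27.0 in the knockout and 77.2 and 76.6 in the wild type (adjusted p = 0.00606), and the glycosylase Tdg fell as well, whereas Uhrf2 was higher (0.86, adjusted p = 0.0420).

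The enzymes Suv39h1 and Suv39h2 write the mark that Cbx5 and Cbx1 bind. Suv39h1 had 46.0, 33.5 and 43.4 in the knockout and 113 and 99.8 in the wild type (log2 fold change -1.38, adjusted p = 0.00636), and Suv39h2 had 7.34, 3.25 and 5.30 in the knockout and 25.8 and 21.4 in the wild type (-2.11, adjusted p = 0.00753). Both fell, as did Whsc1, Prmt1 and Prmt5 among 17 other methyltransferases. Smyd3, a SET and MYND domain methyltransferase, was the largest rise on the list, with 37.9, 53.8 and 36.6 in the knockout and 4.22 and 3.26 in the wild type (log2 fold change 3.34, adjusted p = 0.000516). Histone chaperones were lower in 4 of 11 cases, 36.4% against 17.1% of all tested genes. Chaf1a, the large subunit of the chromatin assembly factor that loads histones behind the replication fork, had 21.3, 17.7 and 23.9 in the knockout and 73.7 and 101 in the wild type (log2 fold change -2.02, adjusted p = 0.00221). Nasp, Ssrp1 and Anp32e were the others. Of 11 SWI/SNF subunits with other names 5 were lower, among them Phf10 (-1.22, adjusted p = 0.00946) and Actl6a (-1.06, adjusted p = 0.0306).

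In corepressor and NuRD complexes 2 of 13 were lower and 1 higher. Rcor2, a CoREST scaffold, had the largest fall on the list, with 4.61, 5.22 and 3.22 in the knockout and 27.5 and 62.5 in the wild type (log2 fold change -3.14, adjusted p = 0.00245). Sap30 of the Sin3 complex was lower (-1.62, adjusted p = 0.00402), and the NuRD subunit Mta3 was higher (0.96, adjusted p = 0.0163). Lower in other groups were Phc2 and Yaf2 of 16 genes of Polycomb repressive complex 1, Dpy30 and Psip1 of 10 COMPASS and MLL genes, Hat1 of 11 acetyltransferase genes, and Ruvbl2 of 12 INO80, SRCAP and ISWI partners. Several of the partners that fell, such as Uhrf1, Chaf1a and Nasp, act at DNA replication, and the markers of dividing cells given above moved the same way, though their part in these falls was not tested.

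The libraries named C and those named SE were also compared within their suffix. The direction was the same in both comparisons for 88 of the 111 members (79.3%), against 87.8% of all tested genes. It was the same for all 22 called members, as it must be for groups that do not overlap. Arid5a fell by 2.81 on the log2 scale in the C libraries and by 2.66 in the SE libraries, and Arid5b was higher by 1.23 in the C and 1.65 in the SE libraries. Chd7 fell by 2.38 in the C libraries and by 1.58 in the SE libraries, while Smarca2 was higher by 0.86 in the C and 1.93 in the SE libraries. The members leaned to higher values in SE, with a median SE minus C difference of 0.49 in the knockout and 0.17 in the wild type, against -0.00040 and -0.08 over all genes. Their annotated exons were also longer, with a median of 7336 bases against 4402, and whether length or RNA quality bears on the shift was not tested.

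With the suffix as a block in the limma fit, 21 members were higher and 31 lower, beside 28.3% and 32.3% of all tested genes. All 6 higher and 16 lower calls were among them. The 30 further members included Smarcc2 (log2 fold change 1.20, adjusted p = 0.000726), Kdm5b and Arid3a as higher, and Brd3 and Smarca4 as lower.

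**Figure D4:**
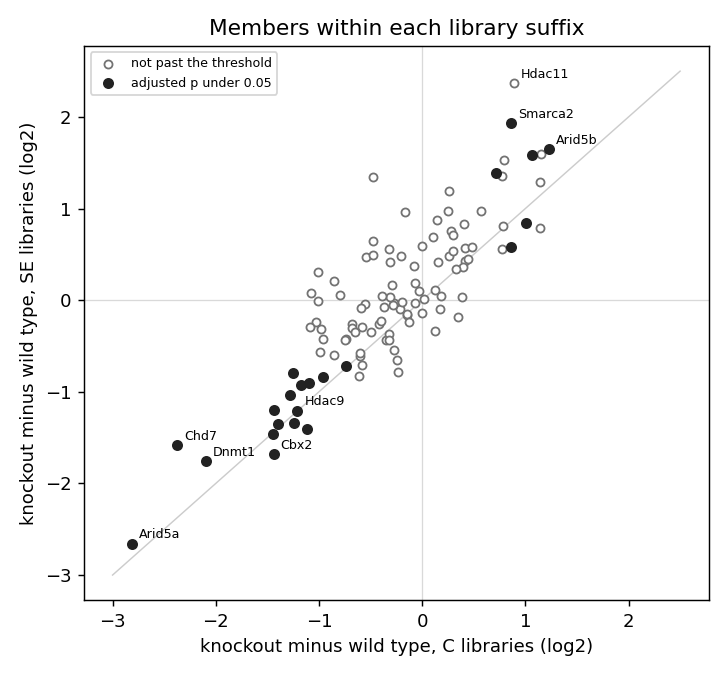
Log2 difference, knockout minus wild type, of each member within the C libraries (x axis, the 2 knockout C libraries averaged) and within the SE libraries (y axis), with filled points for members past the threshold and a line for equal differences. All 22 filled points lie in the lower left or upper right, as they must for groups that do not overlap, and many open points lie above the line.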

How the data were processed

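Messenger RNA was sequenced as single-end reads of 75 bases on an Illumina instrument after a stranded TruSeq preparation, as the protocols in the labels say. The submitters' processing notes name the tools STAR 2.5, edgeR and featureCounts 1.5.2. Genome build, annotation and use of strand in counting are not given in the sources used here. The deposited values are a signal: gene read counts that the authors divided by a library size and brought near the scale of CPM, with column totals of 931660 to 1052926. Dividing by the value of 1 read gave whole numbers, to within 0.02, for 100% of them. Column names gave the group and no replicate number of the titles.

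The test was limma 3.58.1 (lmFit and trended eBayes) on log2(value + 0.5), over 12484 genes with at least 1 in at least 2 libraries, with 3 residual degrees of freedom and Benjamini-Hochberg adjustment over all of them at 0.05. This scale understates changes of low genes. Folds are ratios of group means. Exon lengths, overlaps and neighbours came from GENCODE M21 (GRCm38), and promoters from RefSeq (GRCm38.p6); 24 members had no window. Ratios between genes used the deposited value per kb of exon.

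Named members were, in each role, up to 4 called members with the smallest p and the one with the highest mean, the 8 largest called changes in each direction, the 3 on either side of the threshold, and preset families of related genes; Smarcc2, members named only with a direction and 2 ratio pairs came later. Partner genes named were up to 4 a complex, by p. Members that these rules select and the text does not name are not reported here. The members and lists were chosen with earlier results of these data known. The 19 alternatives were 2 pseudocounts, 2 filters, 3 rescalings, 2 eBayes settings, edgeR 4.0.16 and DESeq2 1.42.0 on recovered reads, each library left out, both SE libraries left out, a suffix block and chromosome centring. Fits were tested on simulated data. R 4.3.3 and Python 3.11.15 were used.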

Additional observations from a re-analysis of the deposited data

How the results depend on the processing

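Under pseudocounts of 0.1 and 1, no filter or a filter at 5, the 3 rescalings, eBayes without a trend or robust, and edgeR, the counts of members and partner genes higher and lower stayed within 1.5 times the reported ones. DESeq2 gave 12 higher members, and its other 3 counts stayed within that range. Leaving out 1 library gave 1 to 7 higher and 3 to 25 lower members, and 1 to 3 higher and 9 to 39 lower partner genes; where 1 wild-type library was left, it was assumed to vary like the knockout libraries. Without both SE libraries 10 members were higher and 25 lower. The suffix block gave 21 higher and 31 lower members and 11 higher and 49 lower partner genes. Chromosome centring gave 17 lower partner genes, and 14 of the 22 called members passed. The cause of these shifts was not tested. No direction of a called member reversed in the 19 alternatives, and called members lost the call in 84 of 418 single-gene comparisons. By the replicate numbers of the sample titles, no paired analysis was possible because the column names do not carry them; the column suffix served as the block above. Read depth of 13605555 to 26658725 and 5 libraries limit what low genes such as Tet1 or Setd1b can show.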
